A study of Homo sapiens with 6 samples.

Results

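Transcripts of the RAS-RAF-MEK-ERK cascade were measured in hepatoma cells that overexpress TKT (transketolase, an enzyme of the pentose phosphate pathway) and in vector control cells. The members were chosen by symbol and are HRAS, NRAS, ARAF, BRAF, MAP2K1, MAP2K2 and MAPK3, that is, 7 of the 22077 symbols in the count table. All 7 passed the filter on low counts and were among the 14162 genes tested. RNA was sequenced from 3 cultures with TKT over-expression and 3 control cultures, whose genotype is labelled wt. No treatment or time point is given. The sample labels name the line Hu7 and the study's Results name Huh7, a human hepatocellular carcinoma line, whereas its Methods name HCCLM3, so the line is taken here as Huh7. By the Methods, TKT was introduced on a plasmid that also carries GFP and puromycin resistance. Whether the cultures derive from 1 clone or a pool is not given in the sources used here. The question was whether the RNA of the cascade's own components differs between the conditions, since the study examined signalling through this cascade.

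In this cascade, RAS proteins are small GTPases at the plasma membrane that are switched on by growth factor receptors and recruit RAF kinases. RAF kinases phosphorylate the MEK kinases, which in turn phosphorylate ERK, and ERK acts on kinases and transcription factors in the cytoplasm and nucleus. Activity in this chain is carried by GTP loading and phosphorylation. An mRNA level shows neither, and nothing below measures the active state of any of these proteins.

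The libraries held between 30148788 and 37096156 counts. TKT rose from between 469 and 515 CPM (counts scaled to 1e6 per library, with TMM factors) to between 9392 and 9549 CPM, and the log2 fold change was 4.26 ± 0.04 (standard error) with an adjusted p of 1.15e-25 (edgeR's quasi-likelihood test with Benjamini-Hochberg adjustment). Of 10 hepatocyte and hepatoma markers, 9 had at least 1 FPKM (fragments per kilobase of gene and 1e6 fragments) in every library, AFP and ALB being the highest. The exception was APOB, with between 0 and 6 counts. Of the 8 markers of other cell types in the table, 6 stayed under 1 FPKM in every library, while EPCAM lay between 13.2 and 14.3 FPKM and PECAM1 between 1.95 and 2.62 FPKM. The summed hepatocyte markers ranged from 5917 to 6046 FPKM in TKT-overexpressing cultures and from 5708 to 5831 FPKM in controls. Their part in the results below was not tested. The samples are called cultures here, and the labels state their separate origin as replicate biosamples without further detail. Whether they were transfected separately is not given. The p-values set the difference between conditions against the spread between these samples.

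None of the 7 genes was called by edgeR's quasi-likelihood test (adjusted p-value under 0.05). Of all tested genes, 10.6% were called, 5.69% as higher and 4.94% as lower with TKT. At an unadjusted p-value under 0.05, 1 of the 7 passed, MAPK3, against 23.8% of all tested genes. DESeq2 and limma on FPKM called 0 of the 7 as well. The study's stricter rule adds an absolute log2 fold change over 1 and was applied by its authors to DESeq2. Set here on edgeR's fit, that threshold was passed by 0.727% of all tested genes and again by 0 of the 7. This share is therefore not the study's own count. The median log2 fold change was 0.02 over the 7 genes and 0.0008 over all tested genes. For 6 of the 7, the 95% interval of the log2 fold change lay within 0.31 of 0 on either side. HRAS is the exception, because its values differed widely between replicate cultures. The bound of 0.31 describes the other 6 intervals and is not a margin of equivalence. Among them, that of MAPK3, from -0.30 to -0.02, excluded 0.

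**Figure D1:**
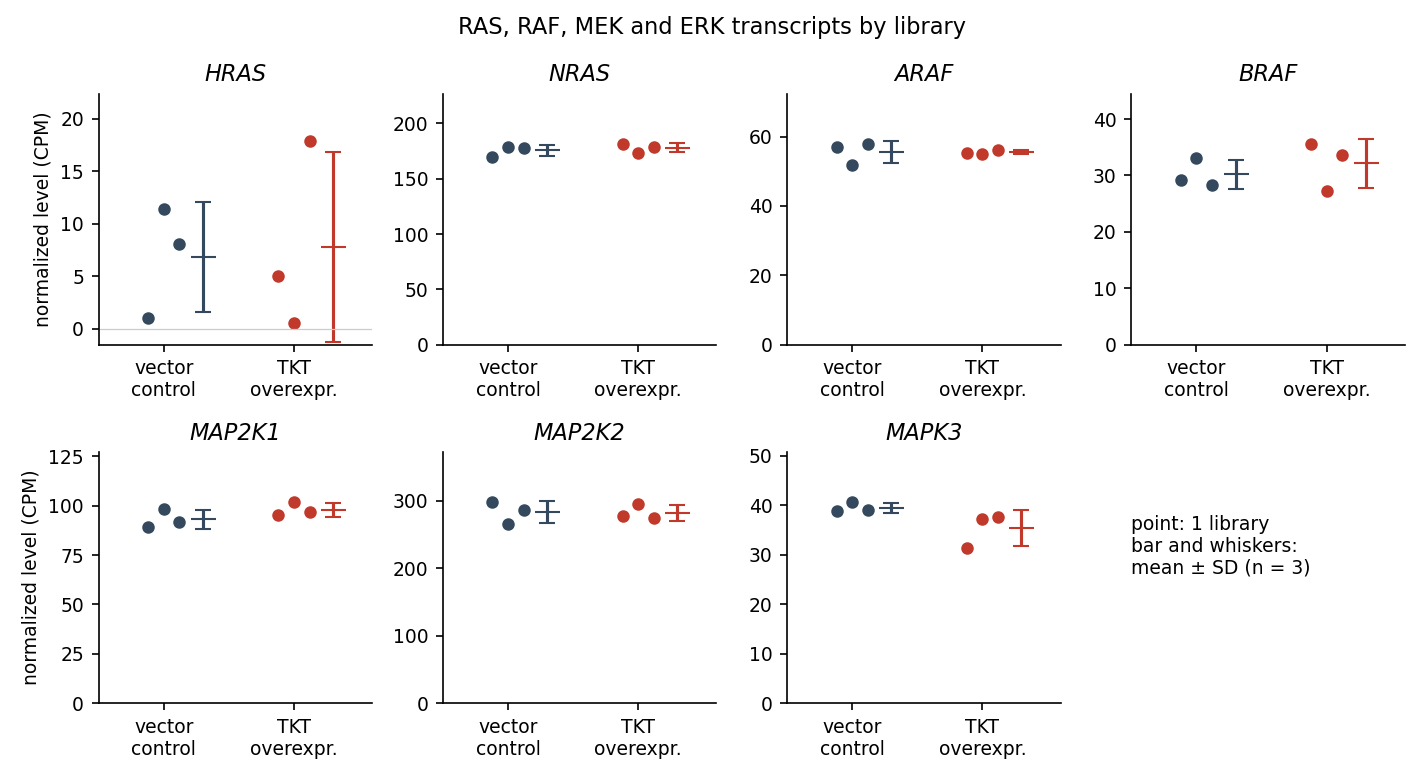
Normalized level in CPM of each of the 7 genes by condition, 1 point per library, with the mean and SD of 3 cultures beside the points. Points of the 2 conditions interleave for all genes but MAPK3, and the HRAS points are scattered from 0.519 to 17.9 CPM.

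**Figure D2:**
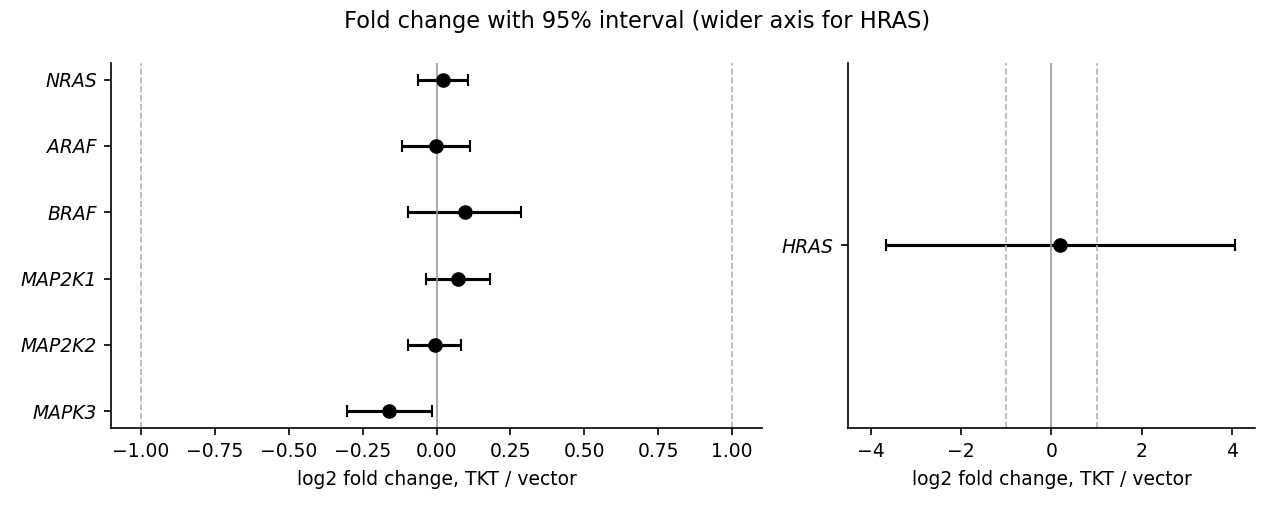
Log2 fold change of TKT-overexpressing over vector control cultures with its 95% interval, from edgeR's fit, with dashed lines at an absolute value of 1. The interval of HRAS runs from -3.67 to 4.06, and those of the other 6 genes stay well inside the dashed lines.

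Among the RAS genes, NRAS, which encodes a small GTPase of the classical RAS family, was abundant and even between cultures. It lies on chromosome 1 from 114704469 to 114716894 on the minus strand (GRCh38, GENCODE 29). NRAS measured 181.6, 173.6 and 178.9 CPM with TKT and 169.8, 178.9 and 177.9 CPM with the vector. The conditions overlap, and the means of 178.0 ± 4.05 and 175.5 ± 4.99 CPM (SD, n = 3 each) differ by less than 1 SD. The log2 fold change was 0.02 (95% interval -0.06 to 0.10, adjusted p = 0.821 in edgeR), so the interval runs from -4.31% to 7.54%.

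HRAS, the gene of a closely related GTPase on chromosome 11 from 532242 to 537287 on the minus strand, could not be assigned a level. The 3 libraries with TKT held 186, 16 and 589 HRAS counts and those with the vector 34, 345 and 271. As CPM these are 5.02, 0.519 and 17.9 with TKT and 1.08, 11.4 and 8.08 with the vector. TKT overexpression replicate 2 and vector control replicate 1 were low, TKT overexpression replicate 3 was highest, and the conditions overlap fully. Within a condition the highest culture exceeded the lowest 34.5-fold with TKT and 10.5-fold with the vector, whereas for NRAS in the same libraries that factor was 1.05 in each condition. The log2 fold change of HRAS was 0.19 with a standard error of 1.41 (adjusted p = 0.959 in edgeR), and its 95% interval allows anything from 0.0786-fold to 16.7-fold. The fitted value turned negative without TKT overexpression replicate 3 (-1.28) or without vector control replicate 1 (-0.31), and was 0.74 when TKT overexpression replicate 2 was left out and 0.77 when vector control replicate 2 was.

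The spread of HRAS was extreme for a gene of its abundance. Its pooled SD of log2 CPM within a condition was 2.18, which ranked 15 among the 14162 tested genes, where the median SD was 0.108. Among the 10282 genes averaging 2 or more on the log2 CPM scale, it ranked 11, and 1.01% of those genes had an SD over 0.5. Its neighbours on chromosome 11 were then examined, a step chosen after the HRAS values were seen. Of the 33 other tested genes that start within 500 kb of HRAS, 6 had an SD over 0.5, or 18.2% against 9.89% of all tested genes. Of these 6, RNH1, RASSF7, PHRF1 and CDHR5 form with HRAS an uninterrupted run of 5 tested genes. The run reaches 88.8 kb beyond the HRAS start. RNH1, which encodes a ribonuclease inhibitor, measured 38.8, 16.2 and 7.18 CPM with TKT and 3.98, 5.89 and 7.54 CPM with the vector. RASSF7, of the family with RAS-association domains, measured 11.7 CPM in vector control replicate 1 and between 0.882 and 1.42 CPM in the other 5 libraries. PHRF1 measured 6.99 CPM in TKT overexpression replicate 3, 9.20 CPM in vector control replicate 1 and at most 0.834 CPM in the other 4 libraries. CDHR5 had 42 counts in TKT overexpression replicate 2 and at most 21 elsewhere.

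RASSF7 and PHRF1 were both highest in vector control replicate 1, while HRAS, RNH1 and CDHR5 were each highest in another library. The run was picked by its SDs, which lay between 0.916 and 2.26. Outside the run but within 100 kb of the HRAS start, PTDSS2 (at -89.0 kb) had an SD of 0.176 and ANO9 (at -95.3 kb) of 0.33. For the 22 neighbours beyond 100 kb that averaged 2 or more in log2 CPM, the SDs lay between 0.0355 and 0.335. RASSF7, PHRF1 and CDHR5 average less than this themselves. The remaining 2 neighbours with an SD over 0.5 were LINC01001 (SD 0.925) and PANO1 (SD 1.13), which lie beyond 100 kb and had between 7 and 44 and between 2 and 26 counts. None of the 5 genes of the run was called. How reads that align to several places were counted is not given in the sources used here, and its part in the spread of HRAS was not tested.

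**Figure D3:**
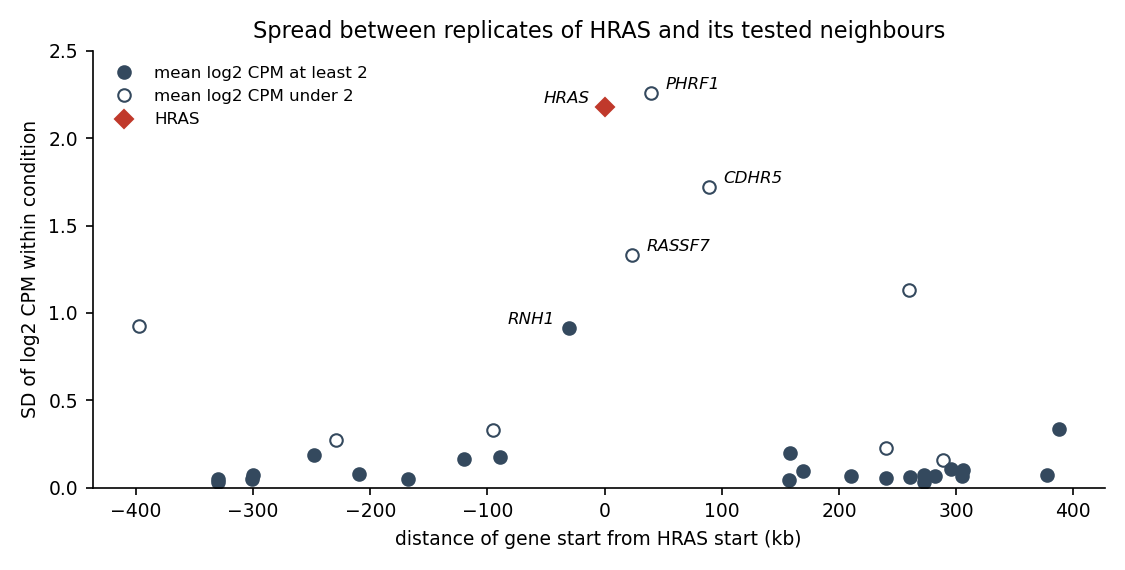
Pooled SD of log2 CPM between cultures of 1 condition for HRAS and the tested genes that start within 500 kb of it, against distance from the HRAS start in kb. Filled circles average 2 or more in log2 CPM and open circles less. HRAS, RNH1, RASSF7, PHRF1 and CDHR5 stand above the filled circles on either side, as do the low-count genes LINC01001 and PANO1.

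RAF kinases are the first kinases of the chain. ARAF, on chromosome X from 47561100 to 47571920 on the plus strand, had the log2 fold change nearest to 0. It measured 55.3, 55.0 and 56.2 CPM with TKT and 56.9, 51.9 and 57.9 CPM with the vector, so the TKT-overexpressing cultures all fell inside the control range. Its log2 fold change was -0.0017 (95% interval -0.12 to 0.11, adjusted p = 0.991 in edgeR). BRAF, the RAF kinase with the strongest basal activity, lies on chromosome 7 from 140719327 to 140924928 on the minus strand. BRAF measured 35.6, 27.3 and 33.7 CPM with TKT and 29.2, 33.0 and 28.3 CPM with the vector. The lowest of all 6 values and the highest were both in TKT-overexpressing cultures, and the conditions overlap. The log2 fold change was 0.10 (95% interval -0.10 to 0.29, adjusted p = 0.591 in edgeR), the widest interval after that of HRAS. Leaving out TKT overexpression replicate 2, the low culture, gave 0.20 with an adjusted p of 0.164, and leaving out TKT overexpression replicate 1, the high one, gave 0.01 with an adjusted p of 0.961. Part of BRAF, 3464 bases, overlaps NDUFB2 on the opposite strand, a gene with between 983 and 1285 counts per library. This overlap is between whole gene spans, introns included. Whether exons of both genes share bases was not examined, and the strand setting of the counting is not given.

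MEK1 and MEK2, the dual-specificity kinases that activate ERK, are encoded by MAP2K1 and MAP2K2. MAP2K1 lies on chromosome 15 from 66386817 to 66492312 on the plus strand and measured 95.2, 101.8 and 97.0 CPM with TKT against 89.1, 98.6 and 91.9 CPM with the vector. Vector control replicate 2 exceeded 2 of the 3 TKT-overexpressing cultures, so the conditions overlap. The log2 fold change was 0.07 (95% interval -0.03 to 0.18, adjusted p = 0.437 in edgeR) and was 0.12 without that control culture (adjusted p = 0.184). Of the MAP2K1 gene span, introns included, 2178 bases overlap SNAPC5 on the opposite strand, which had between 1438 and 1755 counts per library. MAP2K2, on chromosome 19 from 4090321 to 4124129 on the minus strand, measured 276.8, 294.7 and 273.8 CPM with TKT and 297.8, 265.9 and 285.6 CPM with the vector. The TKT-overexpressing cultures again fell inside the control range. Its log2 fold change was -0.0069 (95% interval -0.10 to 0.08, adjusted p = 0.949 in edgeR), and a trend in GC content and length, removed after the data were seen, turned it to 0.06 with an adjusted p of 0.289.

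MAPK3 encodes ERK1, the kinase at the end of the chain, and lies on chromosome 16 from 30114105 to 30123506 on the minus strand. It measured 31.3, 37.3 and 37.6 CPM with TKT and 38.8, 40.6 and 39.1 CPM with the vector. Each TKT-overexpressing culture lay below each control culture, by a wide margin in TKT overexpression replicate 1 and narrowly in the other two. MAPK3 was the 1 member whose conditions did not overlap, a pattern seen in 28.0% of all tested genes split into 13.9% lower and 14.1% higher with TKT. The means were 35.4 ± 3.57 and 39.5 ± 0.984 CPM (SD, n = 3 each). The fitted log2 fold change was -0.16 (standard error 0.07, 95% interval -0.30 to -0.02). The unadjusted p was 0.0309 and the adjusted p 0.157 in edgeR's test, so the difference did not pass. The exact two-sided permutation test over the cultures gave p = 0.1, the smallest that 3 against 3 allow. Without TKT overexpression replicate 1 the log2 fold change was -0.08 (adjusted p = 0.623). With the trend in GC content and length removed it was -0.11 (adjusted p = 0.354).

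Ratios within a library do not depend on the scaling between libraries. The count ratio of MAP2K2 to MAP2K1 was 2.91, 2.89 and 2.82 with TKT and 3.34, 2.70 and 3.11 with the vector, and the TKT values fell inside the control range. That of ARAF to BRAF was 1.55, 2.01 and 1.67 with TKT and 1.95, 1.57 and 2.04 with the vector, which also overlap. The ratio of HRAS to NRAS ranged from 0.00299 to 0.1 over the 6 libraries and overlapped too. No ratio thus separated the conditions. That of MAP2K2 to MAP2K1 varied less between replicates with TKT (mean 2.88, SD 0.0463) than with the vector (mean 3.05, SD 0.327). The other ratios did not share this. The SDs with TKT and with the vector were 0.24 and 0.251 for ARAF to BRAF, and 0.0505 and 0.0292 for HRAS to NRAS. The difference in spread was not tested.

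To compare levels between genes, the authors' FPKM were used. NRAS was highest, between 38.9 and 41.8 FPKM over the 6 libraries, followed by MAP2K2 between 34.4 and 38.0 FPKM. These neighbours in the order did not overlap. ARAF (15.3 to 16.8 FPKM) and MAP2K1 (13.7 to 15.5 FPKM) overlapped, and MAPK3 came next with 8.49 to 11.1 FPKM. BRAF was low, between 1.15 and 1.51 FPKM, and HRAS, from 0.21 to 7.45 FPKM, spanned it. MAP2K2 made up between 69.2% and 73.6% of the summed FPKM of the MEK genes. The order depends on the gene length behind each value. The FPKM imply lengths of 6484 bases for MAP2K1, 7794 for MAP2K2 and 23515 for BRAF. The combined exons in GENCODE 29 measure 3759, 5236 and 23432 bases. Levels per kilobase of the GENCODE exons were a choice made after the data were seen. On this scale MAP2K2 (50.8 to 56.9 CPM per kilobase) exceeded NRAS (38.2 to 40.8), and MAP2K1 (23.7 to 27.1) exceeded ARAF (14.7 to 16.4). BRAF lay at 1.17 to 1.52, but its lengths from both sources are nearly equal, so this is no separate check of its low FPKM. In CPM, which uses no length, BRAF (27.3 to 35.6) overlapped MAPK3 (31.3 to 40.6).

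**Figure D4:**
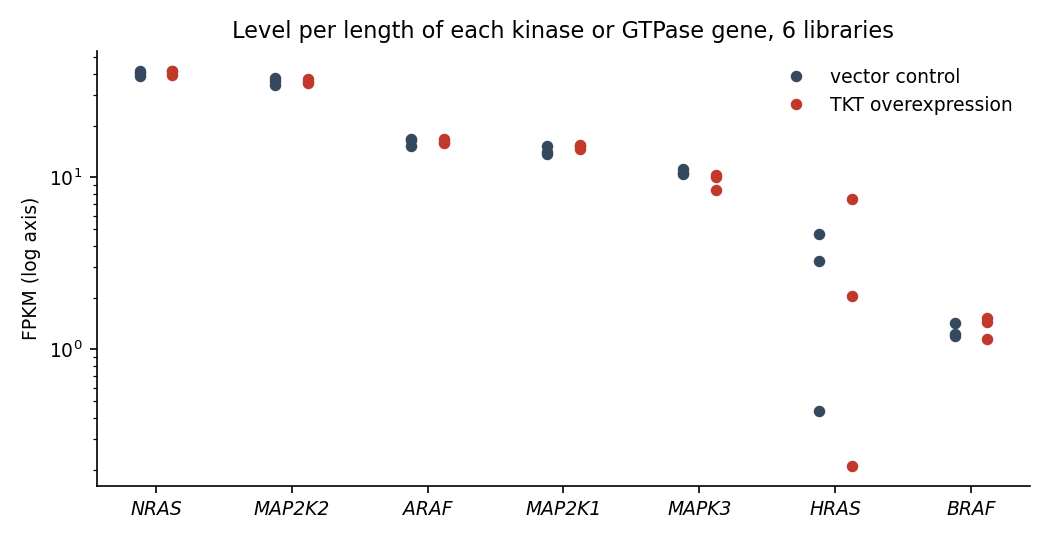
FPKM of each gene in the 6 libraries on a log axis, ordered by median, with vector control and TKT-overexpressing cultures side by side. All genes but HRAS form tight groups of points, and HRAS spreads from 0.21 to 7.45 FPKM.

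The deposited table assigns each gene to KEGG pathways. MAPK3 was in 118 of them, MAP2K1 in 90 and ARAF in 36, and 30 pathways held all 7 genes, so a pathway that is called through other genes still contains these members. As a description over 6 libraries, the tested gene with the log2 CPM profile most like that of each member was ZNF708 for HRAS, UBE2A for NRAS, PPP1R16A for ARAF, CLINT1 for BRAF, MCC for MAP2K1, RPS26 for MAP2K2 and TGFBRAP1 for MAPK3. Pearson's r lay between 0.981 (UBE2A) and 0.996 (RPS26) among 11279 genes searched. For each member, other genes correlated strongly too. UBE2A itself ranged from 1.18 to 38.3 CPM, a far wider span than that of NRAS, since r does not see the size of a change. Its values were uneven within each condition, at 38.3, 2.17 and 20.8 CPM with TKT and 1.18, 15.0 and 17.0 CPM with the vector.

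Around the core, 10 lists of genes that switch on, process, scaffold or answer the cascade held 154 tested genes. Of these, 15 rose and 12 fell by the same edgeR call, 17.5% against 10.6% of all tested genes. Their median log2 fold change was -0.005, against 0.0008 over all tested genes. The lists were chosen with earlier results of these data known, so the shares called are descriptions and not independent tests. The split was 17 higher and 9 lower with upper quartile scaling, and 17 higher and 20 lower with the trend in GC content and length removed. The lower calls numbered 5 when TKT overexpression replicate 1 was left out, 6 when it was vector control replicate 1, and 7 when it was the replicate 3 of either condition. The calls were small, and 1 of them, RASD1, passed an absolute log2 fold change of 1. Over the 16 alternative fits, 12 of the 27 calls held in each one, and the sign of all 27 was unchanged.

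Of 16 tested RAS-like GTPases, 3 rose and 0 fell (18.8% called), with log2 fold changes over the list from -0.494 to 1.15. RASD1, a glucocorticoid-inducible RAS-like protein, measured 6.15, 6.87 and 6.87 CPM with TKT and 2.26, 3.36 and 3.34 CPM with the vector, and its log2 fold change was 1.15 ± 0.18 (standard error) at an adjusted p of 1.73e-04. RIT1, a RAS relative that also signals to MAP kinases, had a log2 fold change of 0.42 (adjusted p = 0.0063). RAP2B had 0.17 (adjusted p = 0.0469), a call that held in 1 of the 6 fits that each left out a culture, that without TKT overexpression replicate 1, with adjusted p up to 0.185 in the others. Among 16 exchange factors and adaptors, 2 rose and 0 fell (12.5%, near the share of all tested genes). SHC2, an adaptor that links receptors to RAS activation, measured 35.7, 36.1 and 34.2 CPM with TKT and 23.1, 24.0 and 23.1 CPM with the vector (log2 fold change 0.59, standard error 0.07, adjusted p = 3.91e-06), with no overlap. IRS2, an adaptor of the insulin receptor, had a log2 fold change of 1.00 at no more than 4.34 CPM (adjusted p = 0.0064, and 0.052 without TKT overexpression replicate 2). Of 9 RAS GTPase-activating and inhibitory proteins, which switch RAS off, 1 rose (11.1%, also near that share). It was RASAL2, with 34.1, 33.1 and 38.8 CPM against 23.5, 26.5 and 24.4 CPM (log2 fold change 0.51, adjusted p = 1.14e-04).

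Of 13 tested enzymes that process RAS for its place at membranes, 1 rose, 2 fell and 10 were not called. The share called was 23.1%, against 10.6% of all tested genes. None of the 3 calls held with a replicate block. FNTA, the alpha subunit of farnesyltransferase, which adds the lipid anchor of RAS, had a log2 fold change of 0.20 (adjusted p = 0.0169). This call was lost without either of TKT overexpression replicates 1 and 3 or of vector control replicates 1 and 3, with adjusted p up to 0.111. ICMT, which methylates the processed end of RAS, fell by 0.16 on the log2 scale, from between 227 and 236 CPM to between 207 and 209 CPM (adjusted p = 0.0074, and 0.0627 with the block). ABHD17A, which removes palmitate from NRAS, fell by 0.16 (adjusted p = 0.0378), and with 1 culture left out at a time the call held where it was vector control replicate 2, with adjusted p up to 0.169 otherwise.

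Of 28 RAF regulators and chaperones, 0 rose and 3 fell, 10.7% against 10.6% of all tested genes, with a list median of -0.001. The fallers numbered 8 with the GC and length trend removed, 5 in DESeq2, and 1 with upper quartile scaling, with the block and in limma. SFN, a phosphoserine-binding adaptor of the family that holds RAF in its inactive form, measured 51.1, 57.2 and 52.0 CPM with TKT and 67.0, 65.2 and 72.2 CPM with the vector (log2 fold change -0.35, standard error 0.06, adjusted p = 3.44e-04). PPP1CC and PPP1CA, catalytic subunits of the phosphatase that SHOC2 brings to RAF, had log2 fold changes of -0.13 and -0.14 (adjusted p = 0.0272 and 0.0369). Both calls were lost without TKT overexpression replicate 1 or 3 or vector control replicate 1 or 3, with adjusted p up to 0.176, and under a replicate block, with 0.122 and 0.15. Of 13 MEK and ERK scaffolds and anchors, 1 rose (7.69% called, against 10.6% of all tested genes). CAV1, which encodes caveolin-1, rose from between 8.21 and 8.55 CPM to between 11.6 and 13.2 CPM. Its log2 fold change was 0.58 (adjusted p = 0.00152 in edgeR).

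Among 13 kinases and factors that ERK phosphorylates, 1 fell (7.69% called, against 10.6% of all tested genes). It was RPS6KA4, a kinase that acts on histones downstream of ERK and p38, with a log2 fold change of -0.22 (adjusted p = 0.0391). This call was lost without TKT overexpression replicate 1 or 3 or vector control replicate 1 or 3, with adjusted p up to 0.23, and in DESeq2 (0.0526). Of 15 other MAP kinases and MAP kinase kinases, 2 fell (13.3% called, near the share of all tested genes). MAP2K6, an activator of p38, measured 30.1, 25.7 and 29.9 CPM with TKT and 35.7, 35.9 and 39.4 CPM with the vector (log2 fold change -0.37, standard error 0.07, adjusted p = 0.00179). MAPK12, a p38 kinase, had -0.18 (adjusted p = 0.029), and with 1 culture left out at a time the call held where it was vector control replicate 2, with adjusted p up to 0.132 otherwise. Of 17 MAP3 kinases outside the RAF family, 2 rose and 1 fell (17.6% called). MAP3K11 fell from between 197 and 202 CPM to between 165 and 177 CPM (log2 fold change -0.20, adjusted p = 0.00198). MAP3K20 and MAP3K1 rose by 0.25 and 0.33 on the log2 scale (adjusted p = 0.00326 and 0.0101). In limma on log2(FPKM + 1), neither of these nor MAP2K6 passed, with adjusted p of 0.0554 for MAP3K20, 0.07 for MAP3K1 and 0.0719 for MAP2K6. For MAP3K1 the adjusted p was 0.0651 when TKT overexpression replicate 3 was left out and 0.0587 when vector control replicate 1 was.

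The share called was largest among genes induced by ERK as feedback. Of 16 tested, 5 rose and 3 fell, 50% against 10.6% of all tested genes, and the list median was -0.059. This list too was chosen with earlier results of these data known, so its share is a description and not an independent test. PHLDA1, EPHA2, DUSP5, DUSP4 and CCND1 rose by 0.46, 0.27, 0.37, 0.37 and 0.18 on the log2 scale, and ETV4, SPRY2 and DUSP6 had log2 fold changes of -0.20, -0.22 and -0.20. The calls of the 5 risers held in all 16 alternatives. The 3 lower calls numbered 0 with a replicate block (ETV4 at an adjusted p of 0.0627), 1 in limma and 5 with the GC and length trend removed. The call of SPRY2 was lost when either TKT overexpression replicate 1 or vector control replicate 3 was left out (adjusted p up to 0.119), and that of DUSP6 without TKT overexpression replicate 1 or 2 or vector control replicate 1 or 3 (up to 0.18).

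**Figure D5:**
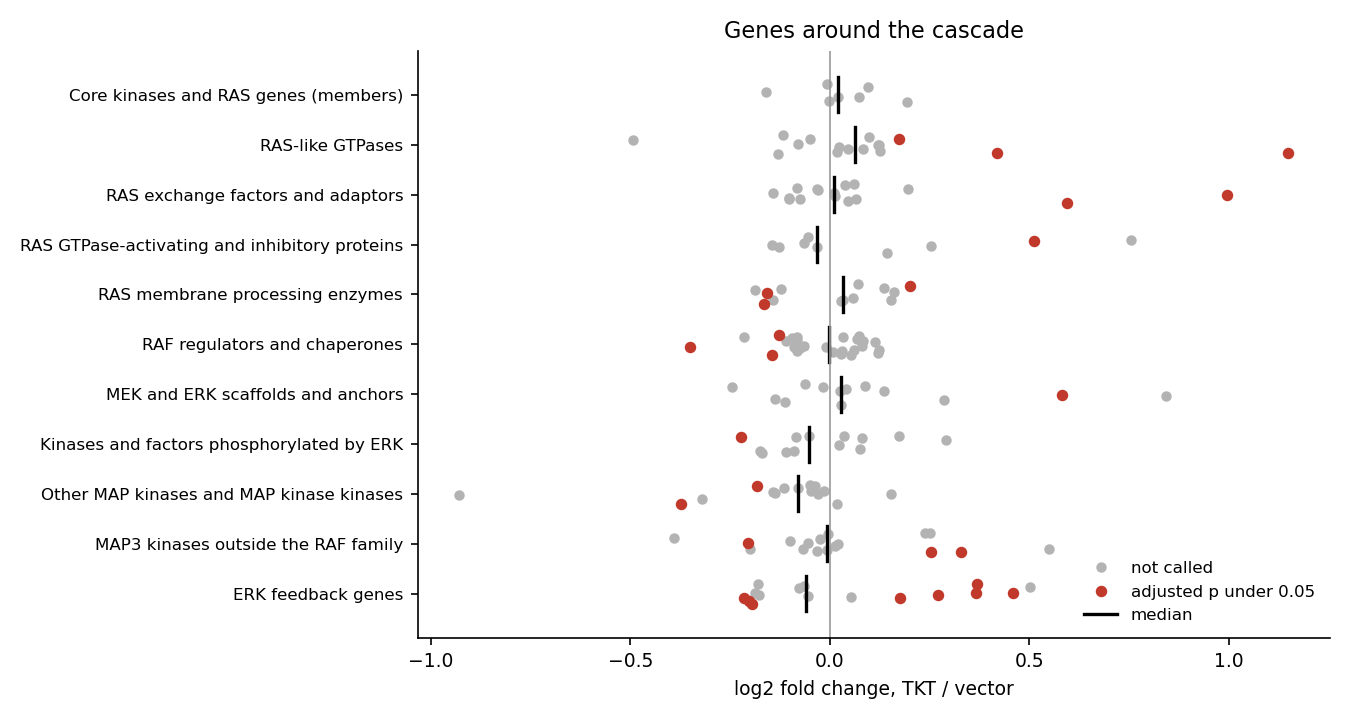
Log2 fold change of every tested gene in the 10 lists and of the 7 members, with genes at an adjusted p-value under 0.05 in red and the median of each list as a black bar. Medians lie between -0.079 and 0.064, and the members have no red point.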

How the data were processed

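RNA was sequenced from 3 TKT-overexpressing and 3 vector control cultures as paired-end reads. Per the labels and the study's methods, reads were trimmed by the authors using fastp 0.22.0, aligned with HISAT2 2.1.0 to hg38 and assigned to genes with featureCounts, and raw counts were deposited. The authors also deposited FPKM per gene. The annotation, strand and multi-mapping options are not given in the sources used here. No per-sample column was left unused.

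The test was edgeR's robust quasi-likelihood test (version 4.0.16, R 4.3.3) without pairing, after filterByExpr at its minimum count of 10 and TMM scaling. P-values were adjusted by Benjamini-Hochberg over 14162 genes, with calls at 0.05. Log2 CPM used a prior count of 2. Precision comes from the spread between 3 cultures (common biological coefficient of variation 0.113). The alternatives were DESeq2 1.42.0, limma 3.58.1 on log2(FPKM + 1) and log2(FPKM + 0.1), other scalings and filters, a replicate block, omission of each culture in turn, and the study's fold threshold. A trend in GC content and exon length (values for 99.9% of genes), levels per GENCODE length and the neighbours of HRAS were chosen after seeing the data. Scripts were tested on simulated counts.

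The members and lists were chosen with earlier results of these data known. The genes named are the members, TKT, up to 3 called genes of smallest p per list, and the gene most like each member. Exceptions chosen after their values were seen are the neighbours of HRAS, the overlapping genes and the further called feedback genes. Other RAS, RAF and ERK paralogues are not reported here.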

Additional observations from a re-analysis of the deposited data

How the results depend on the processing

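None of the 7 members was called under any of the 16 alternative fits, over which the adjusted p-value of MAPK3 lay between 0.115 and 0.623. Several log2 fold changes near 0 changed sign. HRAS was -0.0565 in limma on log2(FPKM + 1) and -0.27 on log2(FPKM + 0.1). ARAF was 0.0107 with upper quartile scaling, 0.0034 with library totals only and with at least 10 counts in every library, 0.00038 with no filter, 0.0041 and 0.0044 in limma on log2(FPKM + 1) and log2(FPKM + 0.1), and 0.0235 with the GC and length trend removed. MAP2K2 was 0.0054 with upper quartile scaling and 0.0566 with that trend removed, which also turned NRAS to -0.0029. With each culture left out in turn, HRAS lay between -1.28 and 0.77, NRAS between -0.0033 and 0.0382, ARAF between -0.0464 and 0.0281, and MAP2K2 between -0.0482 and 0.0304.

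Over all genes, 806 were called higher and 699 lower. These counts were 431 and 266 with a replicate block, 496 and 331 in limma on log2(FPKM + 1), 494 and 332 on log2(FPKM + 0.1), and 99 and 4 at an absolute log2 fold change over 1. With each culture left out they lay between 457 and 820 higher and between 334 and 766 lower. In the lists, the 12 lower calls were 3 under the block, 4 in limma on either FPKM scale, 20 with the trend removed, 0 at an absolute log2 fold change over 1 (where 1 of the 15 higher calls remained), and between 5 and 14 with a culture left out. The cause was not tested. Same-numbered cultures did not deviate together (correlations between -0.03 and 0.02). Whether the cultures were paired by number in the experiment is not given, and these correlations cannot settle it. The block changed no member's call.

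The members other than HRAS had at least 843 counts in every library. For HRAS, with between 16 and 589 counts, a change of several-fold in either direction lies inside the interval and was not detectable with these cultures.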
